A study of Mus musculus with 20 samples.

Results

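Wide accessible domains were taken here as stretches of at least 1500 bp that ATAC-seq peaks covered in any of the 20 libraries. The peaks of all lists, 787806 in number, were merged wherever they shared at least 1 bp, and 292 of the 101352 resulting regions (0.288%) reached that width. The median domain measured 1655.5 bp, against a median of 172 bp over all regions, and the widest measured 3690 bp. Together the domains spanned 510 kb, which was 1.94% of the length of all regions. The domains were chosen by measured peak width over all lists, without regard to genotype, day or medium. Width itself is therefore described below with no p-value given.

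ATAC-seq marks open DNA by inserting sequencing adapters with a transposase. It was run on C2C12 cells, an established mouse myoblast line that can be made to form muscle cells in culture. The 10 groups of 2 libraries each were wild type (WT) or lacked Setd2 (KO), and were collected at D0, or under control medium (CTL) or methionine restriction (MR) at D1 and at D5. The WT libraries are labelled replicates 1 and 2 and the KO libraries line 1 and line 2, so the KO spread includes any difference between lines, and nothing in the labels says whether WT replicates were separate cultures, so p-values measure only the spread between these libraries. Setd2 encodes the methyltransferase that trimethylates histone H3 at lysine 36 along transcribed genes, and methionine is the precursor of the methyl donor used by such enzymes.

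Most ATAC-seq peaks are short because an accessible element is usually the gap left by a few displaced nucleosomes. Wider openings arise where several such elements adjoin, as at promoters of busily transcribed genes, at pairs of promoters facing away from each other and at clusters of enhancers. Many mammalian promoters of broadly expressed genes lie in CpG islands, stretches in which the dinucleotide CpG has not been depleted and which are often held free of nucleosomes.

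The 4 widest gene-end domains that held an annotated start of transcription belonged to the gene pair Ddit3 and Mbd6, to Cited2, to Ephx1 and to the gene pair Zbtb1 and Zbtb25. Ddit3 encodes a transcription factor of the cellular stress response, Mbd6 a methyl-CpG-binding domain protein, Cited2 a regulator that binds the coactivators CBP and p300, Ephx1 an epoxide hydrolase of the endoplasmic reticulum, and Zbtb1 and Zbtb25 are zinc finger proteins. Their promoter sequences are shown because the domains with a start were mostly CpG-rich and because the Ephx1 promoter departs from the others. Each is the 250 bases before a start from RefSeq (assembly GRCm38.p6), read 5′ to 3′ on the gene's strand, with every CpG in capitals. They lie at chr10:127290543-127290792 on the plus strand for Ddit3, chr10:127288882-127289131 on the minus strand for Mbd6, chr10:17722978-17723227 on the plus strand for Cited2, chr12:76370270-76370519 on the plus strand for Zbtb1, chr12:76369465-76369714 on the minus strand for Zbtb25 and chr1:181017570-181017819 on the minus strand for Ephx1.
Ddit3: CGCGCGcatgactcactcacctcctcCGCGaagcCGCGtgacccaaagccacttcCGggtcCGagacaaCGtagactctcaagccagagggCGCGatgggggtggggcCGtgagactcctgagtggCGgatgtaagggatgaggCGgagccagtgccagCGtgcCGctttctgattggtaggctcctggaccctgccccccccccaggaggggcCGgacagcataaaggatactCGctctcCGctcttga
Mbd6: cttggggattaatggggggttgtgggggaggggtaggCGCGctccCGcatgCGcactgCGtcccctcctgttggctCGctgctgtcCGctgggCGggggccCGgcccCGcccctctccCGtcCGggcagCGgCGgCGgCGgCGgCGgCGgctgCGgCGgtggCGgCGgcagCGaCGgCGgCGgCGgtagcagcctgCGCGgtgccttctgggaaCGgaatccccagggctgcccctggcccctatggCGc
Cited2: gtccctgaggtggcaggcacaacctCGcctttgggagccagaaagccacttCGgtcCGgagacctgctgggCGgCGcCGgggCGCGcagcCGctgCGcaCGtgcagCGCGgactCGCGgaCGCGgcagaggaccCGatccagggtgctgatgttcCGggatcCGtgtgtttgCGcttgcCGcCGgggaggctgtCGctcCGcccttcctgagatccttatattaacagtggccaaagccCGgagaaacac
Zbtb1: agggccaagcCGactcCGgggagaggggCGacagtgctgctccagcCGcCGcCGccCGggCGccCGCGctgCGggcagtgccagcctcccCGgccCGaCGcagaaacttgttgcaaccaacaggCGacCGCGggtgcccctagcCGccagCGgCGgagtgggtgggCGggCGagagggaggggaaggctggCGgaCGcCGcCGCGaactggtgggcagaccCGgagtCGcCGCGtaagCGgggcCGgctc
Zbtb25: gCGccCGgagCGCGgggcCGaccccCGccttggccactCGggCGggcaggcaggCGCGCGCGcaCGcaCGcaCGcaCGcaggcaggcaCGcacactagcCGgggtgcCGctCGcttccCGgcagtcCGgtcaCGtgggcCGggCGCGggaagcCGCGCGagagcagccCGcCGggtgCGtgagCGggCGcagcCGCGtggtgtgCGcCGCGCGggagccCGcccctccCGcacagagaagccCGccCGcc
Ephx1: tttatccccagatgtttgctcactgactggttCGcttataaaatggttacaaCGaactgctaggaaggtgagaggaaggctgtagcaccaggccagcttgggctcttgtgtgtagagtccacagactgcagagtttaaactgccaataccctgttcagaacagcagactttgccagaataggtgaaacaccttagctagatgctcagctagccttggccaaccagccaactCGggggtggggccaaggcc

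The Zbtb25 sequence held 44 CpG in its 250 bases and the Zbtb1 sequence 33, and both starts lay in 1 domain on chromosome 12 (76369137 to 76371471, 2335 bp). The Mbd6 sequence held 32 CpG, the Cited2 sequence 26 and the Ddit3 sequence 20. The Ephx1 sequence held 3, and the domain there reached 4 bp upstream of the start and 2648 bp downstream, so that nearly all of the printed bases lie outside it. The letters GGGCGG, the core of the GC box read by Sp1 proteins, occurred on either strand in the sequences of Mbd6, Cited2, Zbtb1 and Zbtb25. Those of Cited2 and Zbtb25 also held CACGTG. Those of Ddit3 and Ephx1 held CCAAT, that of Ddit3 also TGACTCA, the AP-1 motif, and that of Ephx1 TATAAA.

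The same features were counted over every RefSeq promoter window, which runs from 250 bases before to 50 after a start. Of 32619 windows, 229 (184 genes) had their start in a wide domain. The median ratio of observed to expected CpG was 0.839 in these windows, 0.789 in the 10914 windows whose start lay in a narrower region and 0.246 in the 21476 with a start in no region. A ratio above 0.6 together with a GC content above 50% was found in 84.7% of the windows in wide domains, in 73.1% of those in any accessible region and in 33.5% of all windows. The median GC content was 66.7%, 62% and 53% in the same order. By the median CpG ratio, windows in wide domains were closer to those in other accessible regions than to those in none, as the plot of CpG ratios shows.

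**Figure D1:**
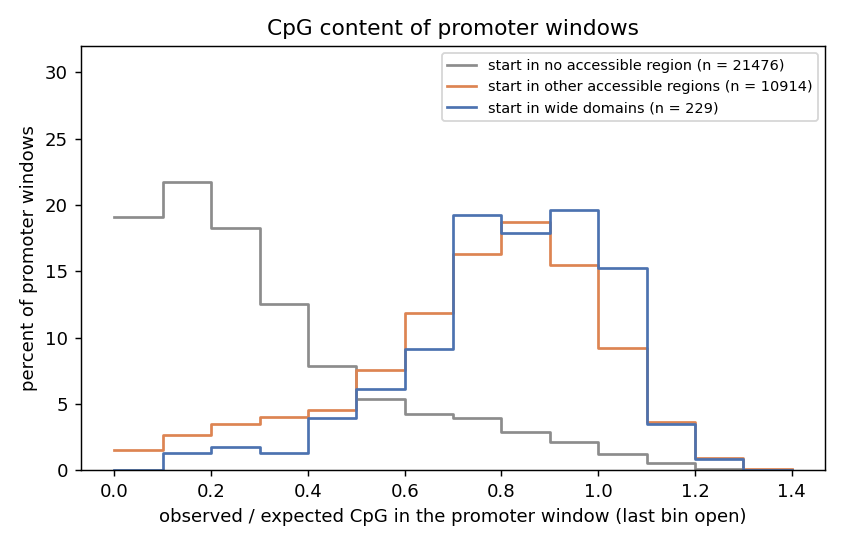
Distribution of the observed to expected CpG ratio in 300-base promoter windows (x axis, bins of 0.1, the last one open) as the percent of windows of each set (y axis), for starts in wide domains, in other accessible regions and in none. The curves for wide domains (median 0.839) and other accessible regions (0.789) peak between 0.7 and 1.0, while windows in no region lie mostly under 0.3 (median 0.246).

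GGGCGG was present in 79.5% of the windows in wide domains, in 67.3% of the windows in any accessible region and in 35.9% of all windows. TATAAA, the core of the TATA box, was present in 4.37%, 5.93% and 13.7%. For CCAAT the shares were 38.9%, 38.7% and 37.6%. TGACTCA stood in 4.37%, 4.45% and 5.22% of windows, and CAGCTG, an E-box of the form bound by myogenic factors, in 15.7%, 16.3% and 16.4%. CACGTG, the E-box of Myc and circadian factors, occurred in 9.61%, 10.6% and 7.20%, and TGACGTCA, the cyclic AMP response element, in 3.49%, 3.57% and 1.80%. Each motif was searched on both strands. The GC box was thus more frequent and the TATA box less frequent in wide domains than over all windows, and neither E-box was more frequent in wide domains than in accessible regions at large. A match gives the letters only, and GGGCGG itself contains a CpG.

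The lists held 644 to 69881 peaks covering 0.0794 to 16.2 Mb. The shortest were from KO line 1 at D5, with 644 peaks (CTL) and 1881 (MR). The other 18 lists held at least 20847 peaks and 3.71 Mb, and the tests used those 18. What is given for KO at D5 thus comes from line 2 alone. The lists do not state how many reads lie behind them, so depth is unknown. The lists were checked against defining genes of the labelled cell type: Des, Cdh15 and Chrna1 carried peaks at an end in 18 of 20 libraries, Myod1, Itga7 and Ncam1 in 17, and Myf5, Pax7 and Vcam1 in none. Of 10 genes that mark other cell types, 9 had no peak at an end in any library and Sox10 had one in 1 KO library.

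Wide domains were mostly shared. In the 18 longer lists, 235 of the 292 domains (80.5%) had a peak in every list, against 11% of all regions, and each of these lists held a peak in 261 to 292 of the domains. A wide region has more bases in which a peak can fall, and its share rose with width from 0.592% of regions under 200 bp to 65.5% of those from 1000 to 1499 bp. The shortest lists, of KO line 1 at D5, reached 19 and 45 domains. Only 8 domains had a peak in all 20 lists. They included those at Tef, a clock-controlled transcription factor, at Sp1, the factor that binds the GC box, at Sertad2 and at Zbtb20. Those over Rnu2-10 and Rnu3a, which RefSeq classes as small nuclear RNA genes, were also among them. At the other end, the domain at Foxf2, a forkhead factor, had a peak in 8 libraries, that at Lrrtm4 in 9 and that at Igfbp5, which encodes a binding protein of insulin-like growth factors, in 10. Apart from Lrrtm4 and Rnu2-10, these examples were chosen after their values were seen.

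Width of a merged domain and width of a peak were not the same. A single peak of 1500 bp or more occurred in at least 1 list for 174 domains, and the other 118 reached the width only when peaks of different lists were joined. The widest single peak of a domain came from KO line 1 in 170 domains, from WT replicate 1 in 64, from WT replicate 2 in 35 and from KO line 2 in 23. Members therefore lean towards places where the libraries of KO line 1 had long peaks, which is part of how they were chosen. When the 18 longer lists were merged for each genotype alone, 139 domains reached 1500 bp only in KO, 50 only in WT, 67 in both and 36 in neither. For days, with the D0 lists left out, the counts were 181 only at D1, 9 only at D5, 30 at both and 72 at neither, and for media, over the same lists, they were 111 only in MR, 40 only in CTL, 58 in both and 83 in neither. A domain wide in 1 group alone was chosen through that group, so where it was also covered more there the difference is given below as a description, with no p. In the list of WT D1 CTL replicate 1, a domain with a peak held 2.35 peaks on average, and in that of KO D5 MR line 2 it held 1.36.

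The values around the threshold were close to each other. The narrowest members measured 1501 bp (between genes on chromosome 11), 1503 bp at Kremen1, a receptor of the Wnt antagonist Dickkopf, and 1503 bp at Fam20a, a pseudokinase of the secretory pathway. The widest regions left out measured 1499 bp at Polr2a, the large subunit of RNA polymerase II, and Slc35g3, 1497 bp between genes on chromosome 6, and 1495 bp at Tent4b, a terminal nucleotidyltransferase. There were 98 regions from 1500 to 1599 bp and 145 from 1400 to 1499 bp.

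Position was scored against 21631 protein-coding genes of the RefSeq table. A domain within 1 kb of either end of a gene was called gene end, another that overlapped a gene intragenic, and the rest intergenic. Of the 292 domains, 170 (58.2%) lay at a gene end, 83 (28.4%) were intragenic and 39 (13.4%) intergenic. Over all regions the shares were 15.8%, 45.5% and 38.7%. The gene-end share was 8.77% for regions under 200 bp, 18.1% from 200 to 499 bp, 39.0% from 500 to 999 bp and 54.0% from 1000 to 1499 bp. It was 57.6% from 1500 to 1999 bp and 61.9% among the 42 domains of 2000 bp or more. A longer region reaches a gene end more easily by its length alone, and regions are not replicates, so these shares carry no test.

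**Figure D2:**
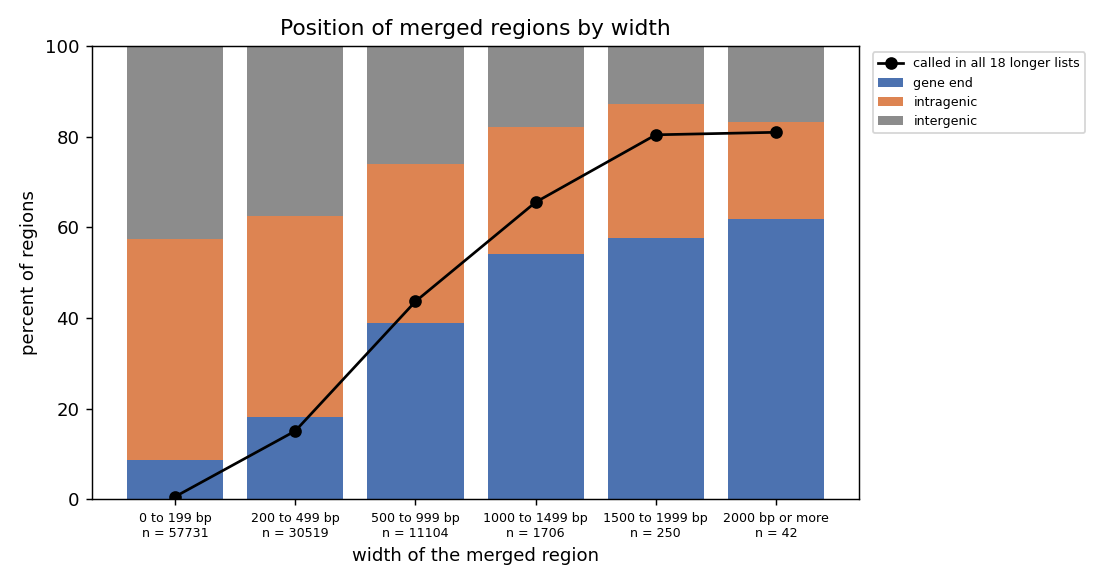
Percent of merged regions at a gene end, intragenic and intergenic (stacked bars, y axis) by width of the region (x axis, with the number of regions), and percent with a peak in all 18 longer lists (black line). The gene-end share grows from 8.77% in the narrowest class to 61.9% in the widest, and the share called in all 18 lists from 0.592% to 81.0%.

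An annotated start lay inside 149 domains (51.0%), against 8.80% of all regions and 47.7% of those from 1000 to 1499 bp, so this share too grew with width. Of the 170 gene-end domains, 128 were at a 5′ end, 5 only at a 3′ end and 37 at an end whose strand was not known. Among all gene-end regions 67.4% were at a 5′ end and 12.6% only at a 3′ end. Reach was measured from the most upstream start, which lengthens the downstream part wherever a domain holds several starts. The 149 domains held 229 starts, and the 8914 regions with a start held 11143. In the 116 domains with starts on 1 strand, the median reach was 654.5 bp upstream and 1031 bp downstream of that start, and 62.9% reached further downstream. How much of this came from domains with several starts was not tested. In the 7679 regions of this kind the medians were 203 and 228 bp, and 49.6% reached further downstream. Starts on both strands were held by 33 domains, 22.1% of those with a start, against 13.9% among all regions with a start. A longer region has more room for starts on both strands, and this difference was not tested.

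The domains lay at an end of 203 genes, which is 0.938% of the protein-coding genes. An end of 2 genes was touched by 33 domains, among them Hnrnpk and Rmi1, Cbx3 and Hnrnpa2b1, Cbx5 and Hnrnpa1, Mfsd11 and Srsf2, and Qars and Qrich1. The hnRNP genes and Srsf2 encode RNA-binding proteins of splicing and RNA processing, and Cbx3 and Cbx5 encode heterochromatin protein HP1 gamma and alpha. These pairs were chosen after their positions were seen. By number of gene ends within 1 kb, the domain at the histone genes H1f1, H3c1 and H4c1 on chromosome 13 (23761027 to 23762781) led with 5 ends. It was followed with 3 ends by those at Spsb2 and Tpi1, at Hcfc1r1 and Tnfrsf12a, and at Gm20783 and LOC108167694. Tpi1 encodes a glycolytic enzyme and Tnfrsf12a the receptor of the cytokine TWEAK, and the histone domain had a peak in 13 libraries only, with a median of 9.80% of its length covered.

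At gene ends the widest domain lay 271 bp beyond the 3′ end of H3f3b, which encodes the replication-independent histone H3.3 (chromosome 11, 116018814 to 116021690, 2877 bp). It was also among the least filled: its covered percent, the part of its length under peaks, had a median of 18.8% over the 18 longer lists and reached 65.3% in WT D1 MR replicate 1. The domain of Ddit3 and Mbd6 (chromosome 10, 127288400 to 127291242, 2843 bp) had a median of 51.8% and a range of 12.4% to 77.7%. At Cited2 (chromosome 10, 17722022 to 17724686, 2665 bp), where the domain reached 1206 bp upstream and 1458 bp downstream of the start, the median was 53.6%. At Ephx1 it was 27.0%, with 0% in both WT D5 CTL libraries and 88.8% in WT D1 MR replicate 1. The domain at Gdf15, a secreted stress cytokine of the TGF-beta family, held no annotated start (chromosome 8, 70629546 to 70632057, 2512 bp, median 36.8%), and that at the 5′ end of Tnrc18 had a median of 58.3%. None of these domains was covered over its whole length in any of the 18 lists.

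The widest intragenic domain lay in Elk3, an ETS-family transcription factor (chromosome 10, 93271167 to 93273927, 2761 bp), with a median covered percent of 44.8%. It was followed by domains in Wwp2, a ubiquitin ligase (2346 bp, 46.9%), Midn, which encodes midnolin (2294 bp, 65.5%), Acot7, an acyl-CoA thioesterase (2194 bp, 50.3%) and Cpeb2, an RNA-binding protein of translational control (2096 bp, 57.0%). The domains in Midn and Acot7 held an annotated start away from the outer gene ends, as 23 of the 83 intragenic domains did.

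Intergenic domains lay closer to a gene than intergenic regions did at large, at a median of 17105 bp against 28294 bp, and 9 were over 50 kb away. The widest domain of all was intergenic, on chromosome 8 from 12130752 to 12134441 (3690 bp), 142491 bp from A230072I06Rik, the nearest protein-coding gene. A pair of domains lay close together on chromosome 15, at 85669011 to 85671365 and 85677462 to 85679833, with Ppara, a nuclear receptor of fatty acid metabolism, as the nearest gene at 63545 and 55077 bp. The domain nearest Arl4d (chromosome 11, 101657708 to 101660046, 2339 bp) lay over Rnu2-10, a gene of the U2 small nuclear RNA. The domain 5043 bp from Klf9 held the start of the noncoding gene 2410080I02Rik.

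Genes of small noncoding RNAs were touched by few domains but by a larger share than in other regions. As the RefSeq table classes them, small nuclear RNA genes were overlapped by 6 domains (2.05%, against 0.0296% of all regions), transfer RNA genes by 6 (2.05% against 0.162%) and miRNA genes by 5 (1.71% against 0.0937%). In regions of 1000 to 1499 bp these shares were 0.703%, 1.407% and 0.762%, so they too grew with width. No domain overlapped a gene classed as small nucleolar RNA (0.0513% of regions). Transfer RNA clusters were covered near Pllp, B4galnt2, Trim7, Wnt11 and Rab11fip4 and in Agbl5. The genes that RefSeq classes as small nuclear RNA were Rnu2-10, Rnu3a, Rnu1a1, Rnu11, Gm25360 and Gm22068. The miRNA genes were Mir1903 at Nrp1, Gm38670 at Hspb6 and Proser3, Mir3109 at Anxa2, Mir2861 and Mir3960 at Cdk9 and Mir7238 at Ankrd10. Such genes come in near-identical copies, and how the authors treated reads that map to several copies is not given in the sources used here.

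The domains were spread over all 20 chromosomes given. Chromosome 15 held 31, which was 10.6% of the domains against 5.76% of the regions, chromosome 11 held 28 and chromosome 8 held 26. Per 1000 regions there were 5.31 domains on chromosome 15, 4.53 on chromosome 8 and 4.04 on chromosome 19, against 0.615 on X and 0.820 on chromosome 14. Only 16 domains lay within 20 kb of another, and the median distance to the next domain was 2027 kb.

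Lists of genes were used to ask which functions the domains stood at. They were chosen with earlier results of these data known, and their counts are read against the 0.938% of all protein-coding genes. None of 15 myogenic regulators, 12 repressors of myogenesis, 14 genes of the methionine cycle or 9 D-type cyclins and CDK inhibitors had a domain at an end, although 10, 11, 12 and 7 of them had some accessible region there. Of 20 genes of the actin cytoskeleton, 3 did (15%): Actb, cytoplasmic beta-actin, Cnn3, a calponin, and Tpm4, a tropomyosin. Actb had 2 domains, on chromosome 5 at 142901339 to 142903164 and 142905229 to 142907002, whose median covered percents were 60.3% and 45.2%. The Tpm4 domain measured 2262 bp (median 33.6%), and 1 lay within Myh9, non-muscle myosin.

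Among 18 AP-1 and immediate early genes the stress-induced factor Atf3 (5.56% of the list) had a domain at its 5′ end (1536 bp, median 46.7%), and a domain overlapped the gene of the oncogenic factor Myc away from its ends (1623 bp, 38.3%). Of 14 genes of the amino acid response only Ddit3 had one (7.14%). Of 15 Runx, Tead and Yap genes Ankrd1, a target of Yap (6.67% of the list), had a domain at an end (1518 bp, 37.1%) and Runx1 an internal one (1559 bp, 50.8%). Setd5 was the 1 gene of 10 H3K36 methylation genes with a domain (10%), and was covered more fully than most, with a median of 91.0% and a range of 69.9% to 99.9%. Rpl3 and Rpl7 were the 2 of 80 ribosomal protein genes (2.5%), Hoxc6 the 1 of 39 Hox genes (2.56%), and H1f1, H3c1, H4c1 and H3f3b the 4 of 78 histone genes (5.13%). None of 22 genes of muscle structure or 16 of the extracellular matrix had one at an end, though Mybph and Col5a1 had internal ones. Each share rests on 0 to 4 genes, and none was tested.

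How fully the domains were covered differed widely between libraries. The mean covered percent over the 292 domains was 45.0% and 54.1% in the WT D0 libraries, 55.1% and 46.4% in WT D1 CTL, 72.3% and 65.5% in WT D1 MR, 23.0% and 21.9% in WT D5 CTL and 45.3% and 44.2% in WT D5 MR. In KO, line 1 and line 2 had 73.5% and 31.2% at D0, 70.6% and 50.3% in D1 CTL and 62.7% and 45.7% in D1 MR. At D5, KO line 2 had 41.7% in CTL and 36.5% in MR, and the short lists of line 1 had 0.574% and 1.34%. In each KO group line 1 lay above line 2 wherever its list was not short, and by more than WT replicates differed. The total length under peaks moved with these values, from 15.6 Mb in KO D0 line 1 to 5.60 Mb in KO D0 line 2, and its part in them was not tested.

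**Figure D3:**
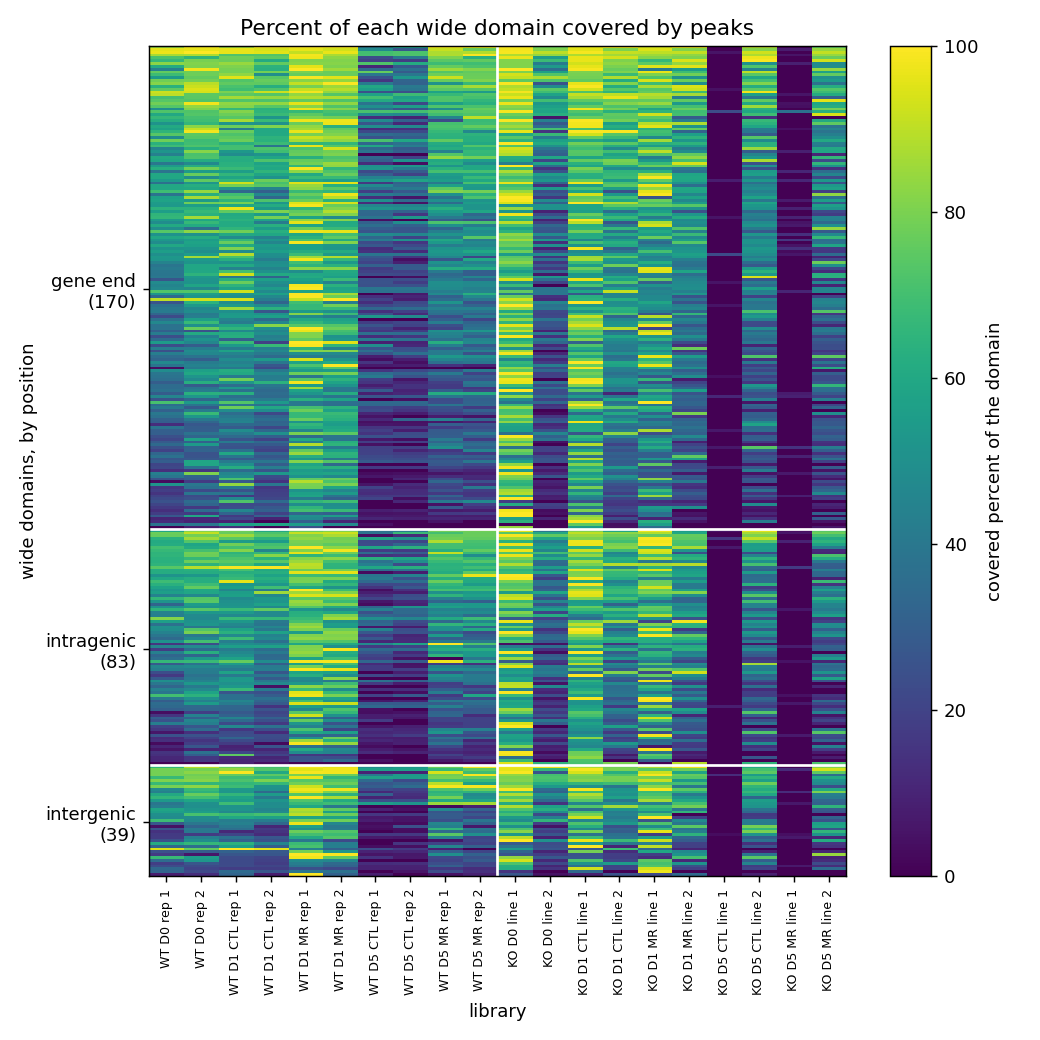
Percent of the length of each of the 292 wide domains under peaks (colour, 0 to 100) in the 20 libraries (columns, WT left of the white line and KO right of it), with domains in rows by position. The WT D5 CTL columns are darker than the other WT columns (means 23.0% and 21.9%), and the KO line 1 columns at D5 are nearly empty (0.574% and 1.34%).

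To relate coverage to the length of each list, the bp of a library under peaks within the domains were divided by all its bp under peaks. This covered share lay between 2.27% and 3.44% in the 18 longer lists. In WT it was 2.64% and 2.49% at D0, 2.34% and 2.59% in D1 CTL, 2.28% and 2.55% in D1 MR, 2.98% and 2.97% in D5 CTL and 2.56% and 2.66% in D5 MR. In KO line 1 and line 2 it was 2.40% and 2.85% at D0, 2.27% and 2.78% in D1 CTL and 2.48% and 3.04% in D1 MR, and line 2 had 3.08% in D5 CTL and 3.44% in D5 MR. Line 2 was above line 1 in each of the 3 groups in which both had long lists. The short lists of line 1 gave 3.50% and 2.67%.

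**Figure D4:**
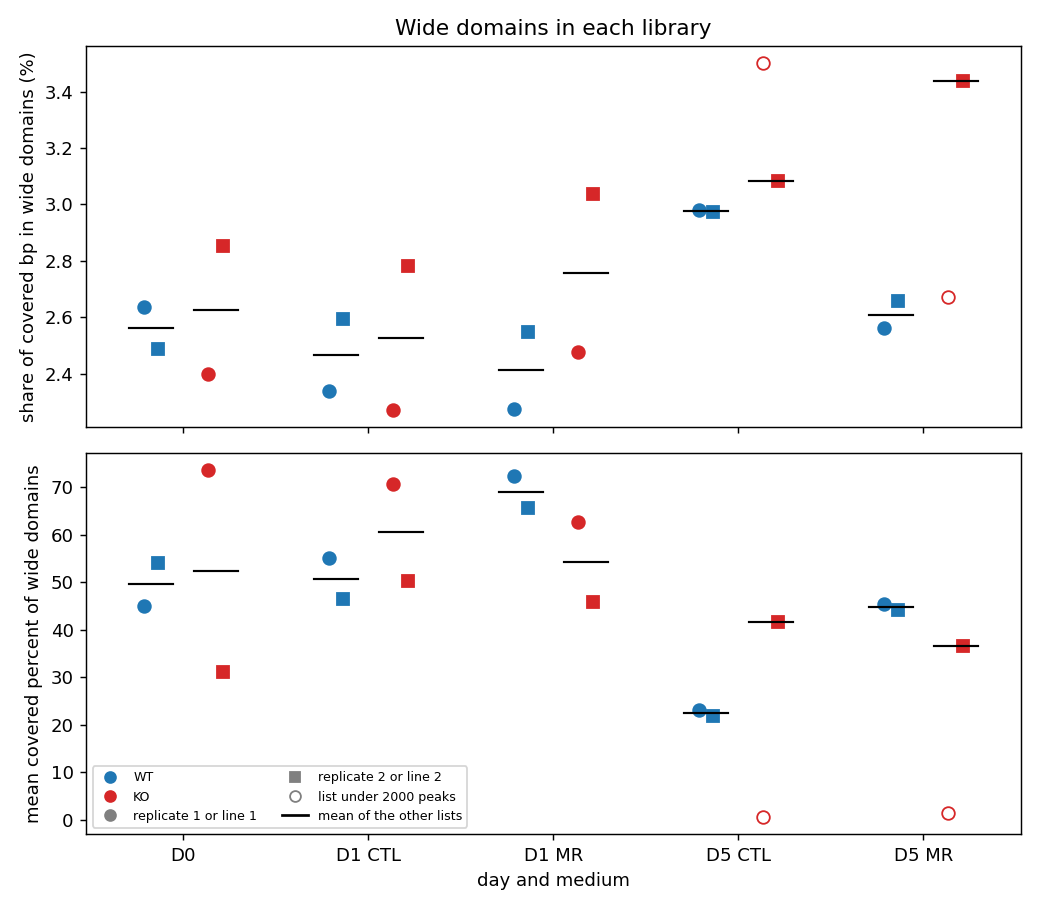
Covered share of the wide domains (upper panel, percent of all bp under peaks) and mean covered percent of the domains (lower panel) in each library, by day and medium (x axis), with WT in blue, KO in red, and the mean of the lists of at least 2000 peaks as a black line. KO line 2 (red squares) has the higher share and the lower covered percent of the 2 lines at D0 and D1, and the open circles are the short lists of line 1.

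Genotypes were compared within the 5 combinations of day and medium, over domains of which more were wide in KO alone than in WT alone. The covered share was higher in KO by 0.281 percentage points (exact permutation p = 0.0432, adjusted over 8 tests 0.173) and the KO mean was higher in 5 of 5 combinations, so the difference did not pass after adjustment. The ranges of KO and WT overlapped at D0, in D1 CTL and in D1 MR. The value rested on line 2: without it the difference was -0.0973. Without line 1 the difference was 0.433 (exact permutation p = 0.00412, adjusted 0.0329, the lowest of 15 settings tried, which ran up to 0.704). Of the domains, 139 reached 1500 bp only in KO and 50 only in WT, so the choice of domains leans towards KO. No conclusion is therefore drawn from these p-values. The other measure was the percent of a list's own peaks that reached 1500 bp, which needs no merging. Because peak width chose the domains, this measure is described with no p-value given. It was higher in KO by 0.0207 points, but the difference was -0.00249 without line 1. Line 1 had 64 such peaks at D0, 52 in D1 CTL and 49 in D1 MR, and line 2 had 2, 7 and 12, so the lines stood on opposite sides in the 2 measures.

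The medium was compared within each genotype and day. The covered share differed by 0.0400 points (exact permutation p = 0.806, adjusted 0.806), with a higher mean in 2 of 4 combinations. In WT it was lower in MR at D5, where the libraries did not overlap, by 0.367 points. In each KO line at D1 it was higher in MR, at 2.48% against 2.27% and at 3.04% against 2.78%. The genotypes' responses over D1 and D5 differed by 0.502 points (exact permutation p = 0.167, adjusted over 16 tests of such differences 0.296), which did not pass. Own wide peaks were more frequent in MR by 0.0206 points. In WT they numbered 8 and 5 in D1 CTL and 58 and 31 in D1 MR, then 0 and 0 in D5 CTL and 9 in each D5 MR library. The 0 of 22465 and 0 of 20847 peaks allow a share of up to 0.0134% and 0.0144%, for counting error only.

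Between days, the covered share at D5 was above that at D1 by 0.485 points, with no overlap in any of the 4 combinations of genotype and medium (exact permutation p = 0.0123, adjusted 0.0988). Over the same libraries less DNA lay under peaks at D5, 3.80 Mb against 10.5 Mb in WT CTL and 8.74 Mb against 14.7 Mb in WT MR. When each list was reduced to its 20000 strongest peaks the difference was 0.227 points (exact permutation p = 0.123, adjusted 0.252, with a range of 0.0432 to 0.571 over the settings tried). Own wide peaks went the other way, with a difference of -0.0290 points and a lower mean at D5 in 4 of 4 combinations. D1 CTL differed from D0 by -0.0969 points in covered share (exact permutation p = 0.5, adjusted 0.667), a contrast that cannot give a p below 0.0556, and by -0.00774 points in own wide peaks.

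Each region was then tested by its covered percent, with adjustment over all merged regions that could reach the threshold, and the rows of the wide domains were read. Between genotypes 6 of 292 domains (2.05%) were called higher in KO, where 4.99% of all regions tested were, and 8 (2.74%) lower, where 7.67% were. Of these 14, 5 of the 6 higher ones reached 1500 bp only in KO and 7 of the 8 lower ones only in WT, so nothing is read from their direction. The exceptions were the domain nearest A230072I06Rik, which measured 3663 bp in KO and 1781 bp in WT, and that at Nab2, which was lower in KO and reached 1500 bp there only. The median difference was 2.49 points over the domains and -2.53 over all regions. No domain and no region passed when a replicate or line was left out, where the exact test has fewer arrangements. At an unadjusted exact permutation p under 0.05 there were 38 of 292 domains with all 18 lists, beside 17361 of 53814 regions tested. There were 9 of 291 domains without WT replicate 1 (7624 of 52473 regions) and 11 of 292 without WT replicate 2 (8336 of 54208). There were 72 of 292 without line 1 (18916 of 49387) and 54 of 290 without line 2 (18313 of 51573). The share of domains was below that of regions in each of these settings. In each of the 14 called domains the ranges of KO and WT overlapped.

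Among the domains covered more in KO, the one inside Lrrtm4, which encodes a synaptic adhesion protein, stood at 0% in 8 of 10 WT libraries and at no more than 9.75% in the others (chromosome 6, 80491412 to 80493052). In KO it was covered by 64.7% to 95.2% in 7 of 8 libraries and by 0% in D1 MR line 1. The difference was 66.1 points. In WT alone the widest stretch there measured 160 bp, and the widest peak, of 1563 bp, came from KO D0 line 1. The widest domain of the set, near A230072I06Rik, had a lowest, median and highest value of 51.5%, 71.2% and 87.8% in KO. In WT the values were 0%, 41.0% and 59.7%, and the D5 libraries were the low ones (difference 38.0 points). Its width of 3690 bp came mostly from the KO lists, which alone reached 3663 bp, against 1781 bp in WT alone. The covered percent thus rests on a length that KO peaks largely set, so no p is given. With the same limit, the domain kept its call when coverage was counted per Mb under peaks in the library.

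The domain 17556 bp from Olfml3, a gene of a secreted glycoprotein, had 29.0%, 65.2% and 99.9% in KO and 0%, 23.6% and 48.8% in WT (difference 41.7 points). The domain nearest Maml3, a coactivator of Notch signalling, had medians of 51.2% in KO and 21.5% in WT (22.4 points). The Olfml3 and Maml3 domains both lay on chromosome 3, whose 11 domains had a median difference of 13.3 points, beside 2.49 over all domains. The part of the chromosome in these values was not tested. At the 5′ ends of Ghr, the growth hormone receptor, and Efnb2, an ephrin ligand, the KO medians were 41.4% and 42.0% and the WT medians 30.1% and 27.4%. In WT alone the widest stretches at these 5′ ends measured 560 and 811 bp. The highest values there came from line 1, 99.6% at Ghr and 88.0% at Efnb2, while line 2 ranged from 29.3% to 47.2% at Ghr and from 26.3% to 55.0% at Efnb2 and overlapped WT in both, as the plot of single libraries shows.

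Of the domains covered less in KO, the one in Cercam, which encodes a cell adhesion protein, had medians of 20.05% in KO and 67.2% in WT (difference -42.7 points). Aldh3b1, an aldehyde dehydrogenase, had 26.4% in KO and 67.1% in WT (-35.3 points). The domain in Mybph, which encodes a myosin-binding protein of muscle, had 4.04%, 18.3% and 54.4% in KO and 15.7%, 53.5% and 100% in WT (-31.5 points). Its lowest WT values were those of D0 and its highest that of D5 MR. Arhgap39, a GTPase-activating protein, had medians of 11.3% and 38.0% in KO and WT, Pmepa1, an inhibitor of TGF-beta signalling, 51.1% and 71.8%, and Ammecr1l 35.05% and 62.9%. Nab2, a corepressor of EGR factors, had 58.4% and 73.4% (-13.6 points, adjusted exact permutation p = 0.0488). Counted per Mb under peaks, the Nab2 domain was not called (adjusted exact permutation p = 0.557). The intergenic domain nearest Fam43a ranged from 0% to 100% in WT and from 0% to 69.1% in KO.

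**Figure D5:**
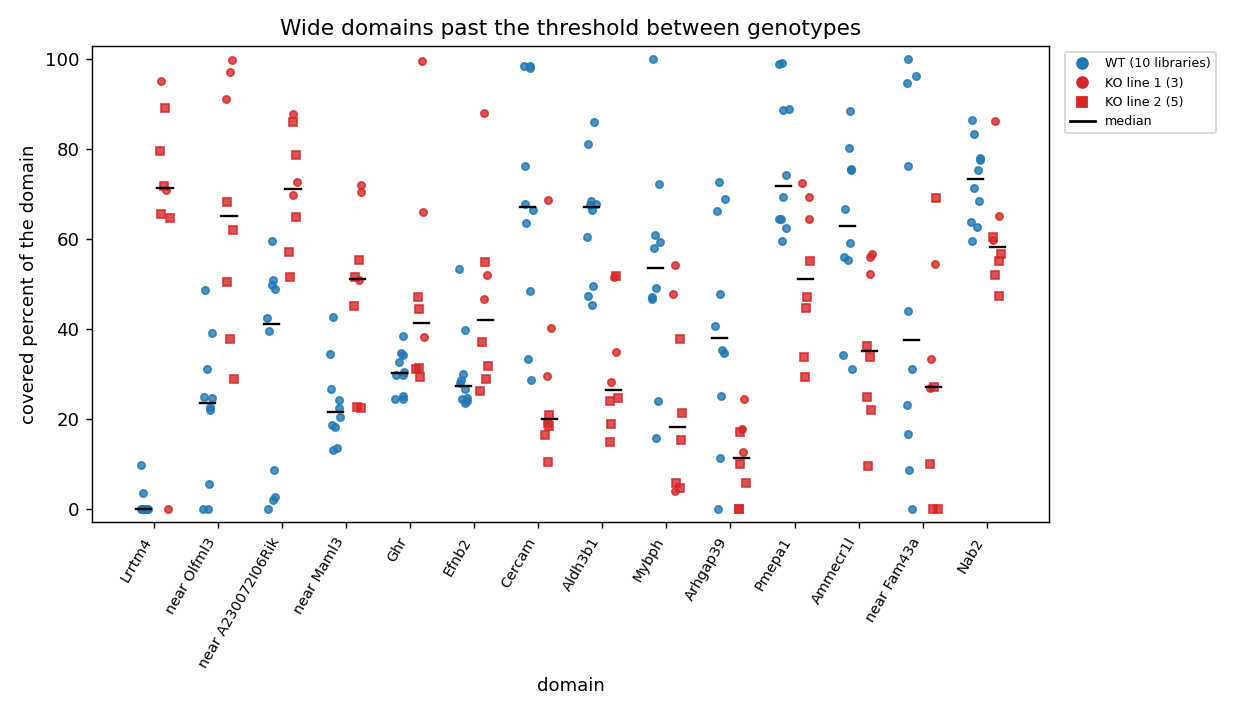
Percent of the domain under peaks (y axis) in each of the 18 longer lists for the 14 wide domains that passed the threshold between genotypes (x axis), with WT in blue, KO line 1 as red circles, KO line 2 as red squares and the median of each genotype as a bar. The first 6 are higher in KO and the other 8 lower, and the ranges of KO and WT overlap in all 14.

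Counted per Mb under peaks, 23 domains (7.88%) were called higher in KO, where 7.93% of regions were, and 12 (4.11%) lower, where 10.9% were. Of the 14 calls above, 11 were among them, and those at Ghr, Efnb2 and Nab2 were not. Under this scaling the domains with a call included Bach2, Rpl3, Gtf3c6 and Hspb6 among the higher ones and Gpc1 and Sgpl1 among the lower ones, all named after their values were seen. The share of higher calls was close to that of all regions and the share of lower calls below it, and neither was tested against it. Of the 23, 17 reached 1500 bp only in KO, and of the 12, 11 only in WT.

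Under methionine restriction no domain passed the adjusted exact permutation test, and no region at all did (0% in either direction). At an unadjusted p under 0.05, 36 domains (12.3%) were higher (9.48% of all regions) and 1 (0.342%) lower (0.492%), and 23 of the 36 reached 1500 bp only in MR. Those of lowest p included the domains at H3f3b, Actb, Rtkn, Tnrc18 and, inside its gene, Bach2, a transcriptional repressor, together with the one over Malat1, an abundant nuclear noncoding RNA. The first Actb domain had 47.9%, 67.3% and 93.4% in MR and 3.56%, 58.1% and 77.8% in CTL, a difference of 29.7 points. The widest stretch there measured 1826 bp in MR and 1441 bp in CTL. The Malat1 domain, which reached the width in both media, had 77.7%, 96.7% and 98.5% in MR and 48.0%, 70.5% and 88.2% in CTL (23.0 points, exact permutation p = 0.00926, adjusted 0.412). The H3f3b domain, of 513 bp in CTL alone, had medians of 49.0% in MR and 20.02% in CTL. The ranges of the media overlapped in each, and the 1 lower domain was that nearest Fam43a.

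From D1 to D5, 98 domains (33.6%) were called lower in covered percent, where 25.3% of all regions were. None was called higher, where 0.0192% of regions were, and none was higher at an unadjusted exact permutation p under 0.05 (0.0641% of regions). Of the 98, 65 reached 1500 bp only at D1, 25 at neither day alone, 7 at both and 1 only at D5, so the count is a description. With a replicate block, which pairs WT by number and each KO line with itself, no domain and no region was called. At an unadjusted exact permutation p under 0.05 there were 122 of 282 domains, beside 10647 of 24775 regions. Lurap1l had the largest difference among those called, with 7.24%, 12.2% and 23.7% at D5 and 27.2%, 64.8% and 99.8% at D1, without overlap (difference -49.0 points). Its widest stretch measured 291 bp at D5 and 1713 bp at D1. At Tkt, the transketolase of the pentose phosphate pathway, the medians at D5 and D1 were 10.8% and 73.7%, at Fam20a 23.1% and 73.4% and at Marveld1 13.3% and 74.6%. Without KO line 1 there were 110 calls among 288 domains, beside 9764 among 34041 regions. Without WT replicate 1 or WT replicate 2 no domain and no region was called. At an unadjusted exact permutation p under 0.05 these omissions gave 41 of 288 and 47 of 290 domains. The counts of regions were 5914 of 31566 and 6659 of 35576. Without KO line 2 the smallest possible p is 0.0556.

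The lists covered less DNA at D5, and counted per Mb under peaks, 17 domains (5.82%) were called higher at D5, where 5.55% of regions were, and 4 (1.37%) lower, where 1.29% were. The 4 were among the 98. The 17 included Setd5, the domain of Rdh10 and Rpl7, Tef, Cdk9, a kinase of transcription elongation, Kmt2e, Nab2 and Mb, the gene of myoglobin. Setd5, which reached the width at both days, had a covered percent lower by 8.11 points at D5 and 105 bp more per Mb (adjusted exact permutation p = 0.0451), and Cdk9, which reached it only at D5, one higher by 0.692 points and 104 bp more per Mb. H3f3b was 1 of the 4 that were lower by both measures, with Asap1, Gse1 and Soga1. These genes, H3f3b and Nab2 aside, were named after their values were seen.

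By position, the median difference in covered percent between days was -20.5 points for gene-end domains, -23.7 for intragenic and -22.1 for intergenic ones. Over all regions of these classes the medians were -19.9, -19.0 and -18.3. The mean was lower at D5 in 164 of 170, 81 of 83 and 38 of 39 domains, and in 87951 of 101352 regions. Under methionine restriction the medians were 4.64, 9.05 and 9.40 points, beside 2.57, 2.88 and 3.35 over all regions. The mean was higher in MR in 123, 69 and 36 of the domains and in 58268 of the 101352 regions. Between genotypes the medians were 0.726, 3.53 and 3.85 points, beside -2.40, -5.56 and 0.586. Differences between these classes, or between domains and regions, were not tested.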

How the data were processed

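The authors deposited 1 broadPeak list per library, called on that library alone. Beside positions, the deposited lists hold the authors' score, fold enrichment (a ratio over background) and the p-value and q-value of each peak as −log10. The lowest deposited −log10 q-value was 1.00. The build is GRCm38, per the submitters' processing notes, and the aligner and peak caller are not given in the sources used here. Scores were not used, and the other peak values were used inside 1 list at a time, to order, select or describe peaks.

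Positions and genes came from RefSeq tables of GRCm38.p6, with peaks on chromosomes 1 to 19 and X. The wide domains and gene lists were chosen with earlier results of these data known. The same 292 enter every arrangement of the labels, but many are wide in 1 group alone, found by merging the lists of each side of a contrast, and no p-value is given where such a domain was covered more in that group. Named domains are the 10 widest, the 5 widest of each position class, the 6 with the largest difference per contrast and direction past the threshold (or of lowest p where none passed), the 3 on either side of 1500 bp, those of the gene lists, and the 5 with the most gene ends. A domain and a marker gene that these rules name are not reported here.

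Tests were exact two-sided permutations of the labels within strata over the 18 lists of at least 2000 peaks, with the difference between group means, averaged over strata, as statistic. Benjamini-Hochberg adjustment covered 8 tests of 2 measures and 4 contrasts (those of peak width, which chose the domains, are not given), or, region by region, all merged regions whose values allow a p of 0.05 or lower (threshold 0.05). KO lines recur in every condition, so their libraries are not fully independent. In WT, libraries with the same replicate number did not deviate together (correlations of -0.123 to 0.104 between groups), and in KO the same line recurs under its number (0.147 to 0.449 at D0 and D1). Python 3.11.15, numpy 2.4.6, pandas 2.3.3 and scipy 1.17.1 were used. Alternatives changed the libraries, the width, the merging, the peak threshold, the length of the lists, the measure and the pairing.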

Additional observations from a re-analysis of the deposited data

Results flagged for a closer look

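The mean covered percent under methionine restriction was higher in WT and lower in KO, a difference that did not pass adjustment. In WT it was higher in MR by 18.2 points at D1 and by 22.3 points at D5, without overlap of the libraries. In KO it was different by -6.24 points at D1 and, in the 1 library of each medium at D5, by -5.23 points. Both KO lines went down at D1, from 70.6% to 62.7% and from 50.3% to 45.7%. The KO response minus the WT response was -25.97 points over both days (exact permutation p = 0.00926, adjusted over 16 tests 0.0988), and with all 20 libraries the exact permutation p was 0.110. The measure was added after its values were seen, so its p restates that observation and is no independent support. The domains were also chosen by peak width in these libraries, and 111 reached 1500 bp only in MR and 40 only in CTL. The widest single peak came from WT D1 MR replicates 1 and 2 in 53 and 19 domains, and from those of WT D1 CTL in 8 and 3. For KO line 1 at D1 the counts were 51 in CTL and 49 in MR. No conclusion is therefore drawn from these p-values.

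The total DNA under peaks moved the same way. Its KO response minus its WT response was -6.40 Mb over both days (exact permutation p = 0.0123, adjusted 0.0988), with 4.16 and 4.94 Mb more in WT under MR at D1 and D5 and differences of -2.21 and -1.49 Mb in KO. The covered share, which divides by that total, differed by 0.502 points (exact permutation p = 0.167). The part of the total in the coverage of the domains was not tested further.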

How the results depend on the processing

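With all 20 libraries, the difference in covered share was -0.108 points for MR against CTL and 0.442 for D5 against D1 (adjusted exact permutation p = 0.0432), and that in own wide peaks, which is described only, was -0.0364 for D5 against D1. Leaving out 1 WT replicate or KO line at a time, the covered share ranged from -0.0973 to 0.433 for KO against WT, from -0.0719 to 0.0550 for MR against CTL, from 0.352 to 0.540 for D5 against D1 and from -0.198 to 0.00461 for D1 CTL against D0. Own wide peaks ranged from -0.00249 to 0.0608 for KO against WT and kept their direction in the other contrasts. Of the covered shares with 1 replicate or line left out, only that of KO against WT without line 1 passed adjustment. No conclusion is drawn from it, because more domains were wide in KO alone than in WT alone. Domains and regions called both fell to 0 for KO against WT in each omission. Domains called ranged from 0 to 110 for D5 against D1, the 110 beside 9764 of 34041 regions. With fewer libraries the exact test has fewer arrangements, and MR against CTL without D5, and D5 against D1 without KO line 2, have a smallest p of 0.0556.

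Width thresholds of 1000 bp gave 2.39 points for the covered share of D5 against D1 (adjusted exact permutation p = 0.0494), and of 2000 bp gave own wide peaks of -0.000366 for MR against CTL and 0.00137 for D1 CTL against D0. With domains defined in replicate 2 and line 2 (107) and measured in the other libraries, the covered share was -0.120 for KO against WT and -0.0706 for MR against CTL; with domains defined in replicate 1 and line 1 (243) it was 0.262 and 0.0230. Gene ends within 2000 bp gave 64.4% of domains at a gene end. Domains called were 0 for KO against WT without D5, with 18 of 292 at an unadjusted exact permutation p under 0.05 (10734 of 47953 regions). They were 35 per Mb under peaks (10161 of 53913 regions). By a call of 50% of the region they were 0, with 15 of 89 unadjusted (7844 of 21327 regions). For D5 against D1 they were 250 with all 20 libraries (31374 of 43943 regions) and 21 per Mb under peaks (3202 of 46802). By the 50% call they were 0, with 38 of 98 unadjusted (5880 of 14547). With a replicate block, pairing WT by number and KO by line, the covered share of MR against CTL was -0.00458 and that of D5 against D1 was 0.352. For D5 against D1 the block called 0 domains, with 122 of 282 unadjusted (10647 of 24775 regions). The cause of these changes was not tested. Of 136 alternative values in all, 107 kept their direction and their side of the threshold. Some of them could not change. D1 CTL against D0 cannot give a p below 0.0556, and MR against CTL without D5 left 0 regions to test. Regions merged from the 18 longer lists alone gave the main covered shares again. The count of 107 is therefore a description only. The depth of the libraries is not known from the lists, and a region without a peak may still be accessible below the authors' threshold.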
